A study of Rattus norvegicus with 6 samples.

Results

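The genes described here encode the subunits of the mitochondrial respiratory chain and of ATP synthase, together with some of the factors that assemble them. They were chosen by symbol alone, as every probe set annotated with exactly 1 gene symbol that starts with Nduf, Uqcr, Atp5, Sdh followed by a, b, c or d, or Cox followed by 4, 5, 6, 7 or 8. The rule gave 94 of the 15923 probe sets on the array, which stand for 88 of the 10412 genes named there by a single symbol. It used no measured value, though it was chosen with earlier results of these data known. By what each gene is known to encode, 34 belonged to complex I, 4 to complex II, 7 to complex III, 15 to complex IV and 15 to complex V. Another 9 were assembly factors, and 4 were related genes that share a prefix without being regular subunits of a complex.

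RNA came from cultured mesenchymal stromal cells, spindle-shaped cells that attach to plastic when mononuclear cells of bone marrow or, more rarely, of blood are plated. All 3 donor animals, labelled rats S4, S5 and S6, carried a GFP transgene, so the marrow and the blood cultures share it. Each rat gave 1 bone marrow culture and 1 peripheral blood culture, grown in the same medium with serum from density gradient mononuclear cells, and passage 2 cells were used. Biotin-labelled RNA made from 10 µg of total RNA per culture was hybridised to 1 Affymetrix RAE230A array, so the 6 arrays form 2 groups of 3 that are paired by rat. For the rats' strain, age and sex, and for the promoter of the transgene, the labels used here give no entry.

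In oxidative phosphorylation, complexes I and II pass electrons from NADH and succinate to ubiquinone, complex III passes them on to cytochrome c, and complex IV hands them to oxygen. Complexes I, III and IV pump protons across the inner mitochondrial membrane, and complex V, the ATP synthase, makes ATP as protons flow back. Most subunits are encoded in the nucleus, and the members here are nuclear genes. Cultured marrow stromal cells are known to draw much of their ATP from glycolysis and to raise mitochondrial respiration as they differentiate. The arrays measured transcripts of these genes, and not protein, respiration or ATP.

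Promoters of respiratory genes are known for binding sites of NRF1, of the ETS factor GABPA and of YY1. Windows of 300 bases, from 250 before to 50 after the annotated start, were available in RefSeq (build GRCr8) for 80 of the 88 genes, and were searched on both strands for fixed letters. The palindromic NRF1 site of 10 bases was in a window of 6.25% of member genes, which have 1 window each, and of 1.16% of the 19005 protein-coding genes, some of which have several (1.08% of their 21851 windows). Shares here are of genes. Its core GCATGC was in 16.2% and 8.17%. CCGGAAG, an ETS site, was in 30% of members and 11.6% of all genes, and its shorter form CGGAAG, which it contains, in 55% and 21.3%. AAGATGGC, a YY1 site, was in 21.2% of members and 4.08% of all genes, while ATGGCG, which overlaps it, was in 32.5% and 12.8%. By contrast CCAAT was in 35% of members and 39.8% of all genes, and TATAAA in 10% and 14%. These are matches of letters and not measured binding.

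The 120 bases before the annotated start are shown for 4 members to which the results return below. In Ndufa11 and Atp5po the windows hold the NRF1 letters, and the signal was lower in all 3 blood cultures than in any marrow culture. Uqcrh and Ndufaf3 are the subunit and the assembly factor with the smallest p-values. The NRF1 letters were also in the windows of Atp5me, Ndufaf4 and Ndufaf5, whose groups overlapped. Their log2 differences, blood minus marrow, were -0.09 ± 0.12, 0.18 ± 0.19 and -0.12 ± 0.12 SE. No link between the letters and the signal was tested. Capitals mark matches to the full NRF1, ETS and YY1 sites or to the CCAAT and TATA letters, in either direction, and each stretch reads 5′ to 3′ on the strand of its gene.
Ndufa11 (GRCr8 chr9:1637494-1637613, plus strand): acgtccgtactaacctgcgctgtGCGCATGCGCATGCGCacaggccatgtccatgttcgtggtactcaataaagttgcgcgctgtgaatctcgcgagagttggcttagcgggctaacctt
Atp5po (GRCr8 chr11:44657484-44657603, minus strand): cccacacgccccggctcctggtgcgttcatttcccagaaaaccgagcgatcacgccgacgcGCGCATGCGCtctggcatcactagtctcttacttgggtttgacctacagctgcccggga
Uqcrh (GRCr8 chr5:134790883-134791002, minus strand): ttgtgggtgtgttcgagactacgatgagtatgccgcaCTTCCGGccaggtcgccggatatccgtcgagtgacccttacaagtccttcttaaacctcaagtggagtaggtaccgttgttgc
Ndufaf3 (GRCr8 chr8:118141724-118141843, minus strand): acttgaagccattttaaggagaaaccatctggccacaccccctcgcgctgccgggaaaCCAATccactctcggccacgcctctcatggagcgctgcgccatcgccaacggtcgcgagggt
In Ndufa11 a pair of overlapping copies of the NRF1 letters makes up 1 capital run. In Uqcrh the ETS letters lie on the opposite strand, and in Ndufaf3 the single match is a CCAAT box.

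The comparison asked how the respiratory genes of stromal cells grown from blood differ from those of stromal cells grown from the marrow of the same rat. No member passed the test in either direction, and among members past the filter on signal the differences were at most 0.57 log2 units in size. The largest of these were higher signals of the assembly factor Sdhaf4 (log2 difference, blood minus marrow, 0.57 ± 0.30 SE) and of Ndufa4l2 (0.55 ± 0.20), and the lowest difference was that of Uqcrh (-0.30 ± 0.12). Cox4i2, too dim to pass the filter, differed by -1.24 ± 0.49. Over the members tested the median difference was -0.05, against -0.01 over all probe sets tested. This median hides opposite shifts, upward in rat S4 and downward in rats S5 and S6, which are described after the single complexes.

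Values are the log2 signals the authors deposited, and a probe set was tested where its signal lay above the median of all values, 8.18, on at least 3 of 6 arrays. Of the 94 members 81 passed, standing for 80 genes, and 13 were dimmer. On all 6 arrays 77 of the 81 lay above 8.18, and the other 4, Cox6a2, Ndufa4l2, Ndufaf3 and Sdhaf4, did so on some. The genes with no probe set past the filter were Cox4i2, Cox5a, Cox6b2, Cox7a1, Cox8b and Cox6c-ps1, and the assembly factors Ndufaf7 and Sdhaf3. Limma, with the rat as a term and Benjamini-Hochberg adjustment over all 8135 probe sets tested, called 0 of the 81 at an adjusted p under 0.05, where 2.15% of all probe sets were called, 0.983% higher and 1.17% lower in blood cultures. At an unadjusted p under 0.05 there were 3 of 81 members, or 3.70%, against 14.1% of all probe sets. Differences were below 0 for 56 of 81 members, or 69.1%, against 52.1% of all probe sets tested. By genes these shares were 68.8% and 52.5%, and 53.5% for tested genes between the members' quartiles of mean signal. In a fit of all probe sets without the filter, 0 of 94 members were called and 0 had an unadjusted p under 0.05. There 66 of 94 differences were below 0.

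The 95% intervals say how large a difference these 6 arrays leave possible. For 61 of the 81 members, 75.3%, the whole interval lay within 0.5 log2 units on either side of 0, compared with 53% of all probe sets tested. For 78 of 81, or 96.3%, it lay within 1 log2 unit, which is a 2-fold difference if the logarithms are to base 2, against 89.6% of all. The median width on either side of the estimate was 0.33, and the median residual SD was 0.13 for members and 0.16 for all probe sets. In bulk cultures less RNA per cell and fewer cells that carry it cannot be told apart.

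**Figure D1:**
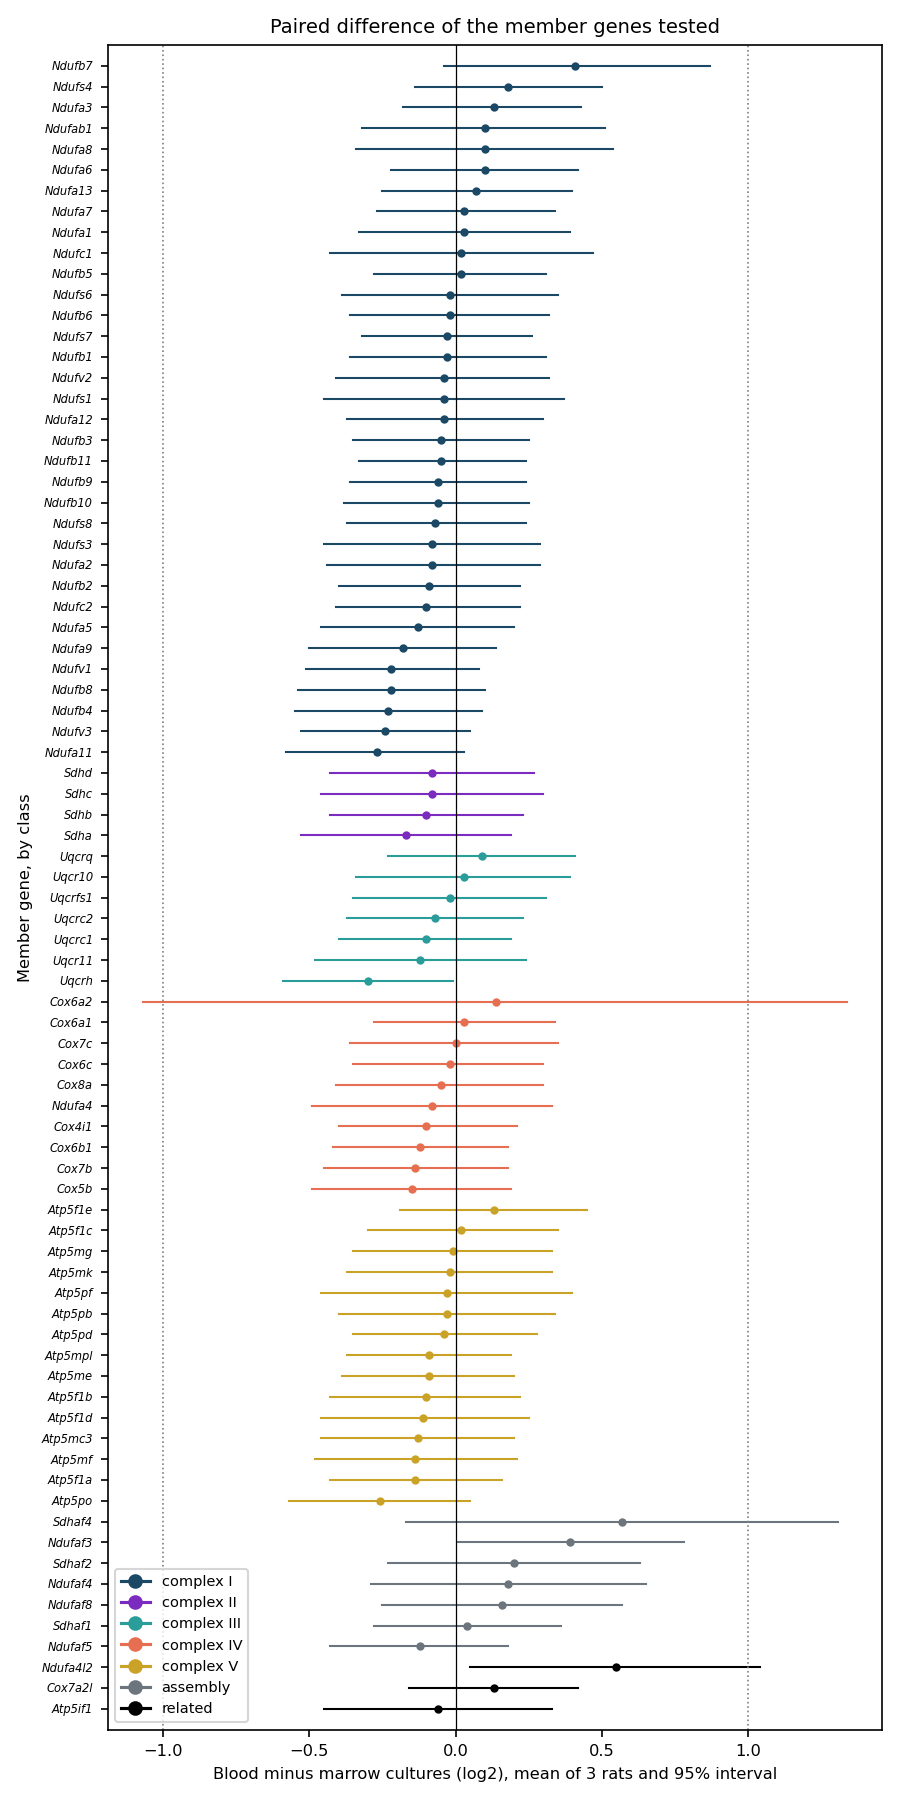
Paired difference of each tested member gene, blood minus marrow cultures in log2 units on the x axis, as the mean of 3 rats (points) with its 95% interval from limma (bars), grouped and coloured by class; dotted lines mark 1 log2 unit. Nearly all points lie close to 0, with Cox6a2, Sdhaf4 and Ndufa4l2 as the genes whose intervals reach past 1.

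Complex I, the NADH dehydrogenase and the largest complex of the chain, had all 34 of its genes tested. Their median difference was -0.04, with 23 below 0 (67.6%, against 52.5% of all tested genes) and 11 above. The 6 core subunits, which carry the flavin and the iron-sulfur clusters or form part of that arm, all had differences below 0, with a median of -0.06. Among the 28 accessory subunits 17 were below 0, with a median of -0.03.

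Ndufa11, an accessory subunit of the membrane arm, had the lowest difference of the complex. Its level in marrow cultures of rats S4, S5 and S6 was 10.29, 10.37 and 10.56, and in blood cultures 10.16, 10.02 and 10.22. All 3 blood cultures were below all 3 marrow cultures, by a mean of -0.27 ± 0.12 (95% interval -0.58 to 0.03, adjusted p = 0.411). Ndufv1, the core subunit that binds NADH, behaved alike, at 10.04, 10.18 and 10.24 in marrow and 9.88, 10.01 and 9.92 in blood cultures, with a difference of -0.22 ± 0.12 (adjusted p = 0.52). Its small partner Ndufv3 was at 9.98, 9.88 and 10.00 in marrow and 9.81, 9.58 and 9.76 in blood cultures, differing by -0.24 ± 0.12 (adjusted p = 0.461). In both genes the groups did not overlap, and neither difference passed the test. Ndufb7, an accessory subunit of the membrane arm, went the other way. Its marrow levels of 10.30, 10.46 and 10.35 stood against 10.84, 10.41 and 11.10 in blood cultures, so that rats S4 and S6 were higher in blood and rat S5 was not. The difference was 0.41 ± 0.18 (95% interval -0.04 to 0.87, adjusted p = 0.408), and without rat S5 it was 0.64, with an adjusted p of 0.124.

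Complex II, succinate dehydrogenase, is also an enzyme of the tricarboxylic acid cycle, and its 4 genes all passed the filter. Sdha, the flavoprotein that oxidises succinate, had levels of 10.16, 10.36 and 10.44 in marrow and 10.28, 9.96 and 10.21 in blood cultures. Its difference of -0.17 ± 0.15 had a 95% interval of -0.53 to 0.19. The iron-sulfur subunit Sdhb differed by -0.10 ± 0.13 and the membrane anchor Sdhc by -0.08 ± 0.15. All 3 genes were higher in blood than in marrow in rat S4 and lower in rats S5 and S6. The second anchor, Sdhd, was read by a pair of kept probe sets, which differed by -0.08 ± 0.14 and -0.22 ± 0.12. The median of the complex was -0.09, with 4 of 4 genes below 0, where 52.5% of all tested genes were.

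Complex III, the cytochrome bc1 complex, had 7 genes, all tested, and a median difference of -0.07. Uqcrh, the hinge protein through which the complex meets cytochrome c, had the lowest difference of all members tested. In marrow cultures of rats S4, S5 and S6 it lay at 11.06, 11.08 and 11.30, and in blood cultures at 10.83, 10.70 and 11.01. Each blood culture was below every marrow culture, and the difference of -0.30 ± 0.12 had a 95% interval of -0.59 to -0.01, with a p of 0.0451 before and 0.339 after adjustment in limma. It lay between -0.34 and -0.26 whichever rat was left out. The core protein Uqcrc1 differed by -0.10 ± 0.12 and the small subunit Uqcr11 by -0.12 ± 0.14. Uqcrq, another small subunit, had the highest difference of the complex, 0.09 ± 0.13.

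Complex IV, cytochrome c oxidase, differs from the others in having tissue isoforms of several nuclear subunits. Of its 15 genes 10 passed the filter, with a median difference of -0.07. Of these 10, 80% were below 0, against 52.5% of all tested genes. The smallest p-values belonged to Cox5b (-0.15 ± 0.14, adjusted p = 0.749) and Cox7b (-0.14 ± 0.13, adjusted p = 0.756), which are common to all tissues, and neither was far from the next members.

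Subunit 4, which regulates the enzyme, exists as the ubiquitous Cox4i1 and as Cox4i2, known from lung and from cells in low oxygen. Cox4i1 was steady, at 11.98, 12.07 and 12.25 in marrow and 12.04, 11.90 and 12.07 in blood cultures, with a difference of -0.10 ± 0.12. Cox4i2 lay below the filter and had the largest difference of any member, taken from the fit without a filter. Its marrow levels were 8.70, 8.14 and 7.41, and its blood levels 6.27, 8.26 and 5.99. In rats S4 and S6 the blood culture was lower than the marrow culture of the same animal, and in rat S5 the cultures were close, so the groups overlapped. The difference was -1.24 ± 0.49, with a 95% interval of -2.51 to 0.02 and an unadjusted p of 0.0529. Since 1 of the 3 blood arrays exceeded 8.18, this size depends on a signal of unknown background.

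Isoforms of heart and skeletal muscle were also on the array. Cox6a2 just passed the filter, at 6.85, 8.34 and 8.96 in marrow and 8.19, 8.75 and 7.62 in blood cultures. It was higher in blood in rats S4 and S5 and lower in rat S6, and its difference of 0.14 ± 0.48 had the widest interval of the tested members, -1.07 to 1.34. Its ubiquitous counterpart Cox6a1 differed by 0.03 ± 0.13. The muscle isoforms Cox7a1 and Cox8b and the testis isoform Cox6b2 were below the filter in every culture, at 6.75 to 7.36, 4.03 to 5.20 and 4.95 to 5.55, while the ubiquitous Cox8a and Cox6b1 differed by -0.05 ± 0.14 and -0.12 ± 0.12. Muscle markers were uneven between the groups. Of the 13 muscle markers on the array 4 passed the filter, and their median difference was -0.17. Myod1, a muscle regulator that did not pass the filter, was at 5.81, 9.09 and 10.17 in marrow and 4.56, 4.56 and 3.59 in blood cultures. Its difference of -4.12 ± 1.00 was the largest of the list, and that of Acta1, also below the filter, was next (-2.94 ± 0.38). Others were flat, as Ckm (-0.02 ± 0.15) and Myh6 (-0.00 ± 0.12), or higher in blood, as Mb (0.21 ± 0.18). Summed over the list, log2 signals were 97.53 to 105.95 in marrow and 92.34 to 94.12 in blood cultures, with no marker at 0, and their part in the isoform values was not tested.

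Ndufa4, first assigned to complex I and now counted with complex IV, lay at 11.09, 11.25 and 11.17 in marrow and 11.13, 10.78 and 11.35 in blood cultures, a difference of -0.08 ± 0.16. Its paralog Ndufa4l2 is known as a gene that hypoxia-inducible factor switches on. Marrow cultures of rats S4, S5 and S6 had 9.41, 10.03 and 7.95, and their blood cultures 9.84, 11.10 and 8.09. Each blood culture was above the marrow culture of the same rat, but the rats differed more from each other than the groups did. The paired difference was 0.55 ± 0.20 (95% interval 0.05 to 1.04), with a p of 0.0366 before and 0.305 after adjustment. Without rat S5, whose own difference was 1.07, it was 0.29, and without the rat as a term the adjusted p was 0.856. Ndufa4l2 and Cox4i2, both known to respond to low oxygen, thus had differences of opposite sign here. Ndufa4l2 did not pass the test. Cox4i2, left out of it by the filter, was not called in the limma fit without the filter either (adjusted p = 0.454).

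**Figure D2:**
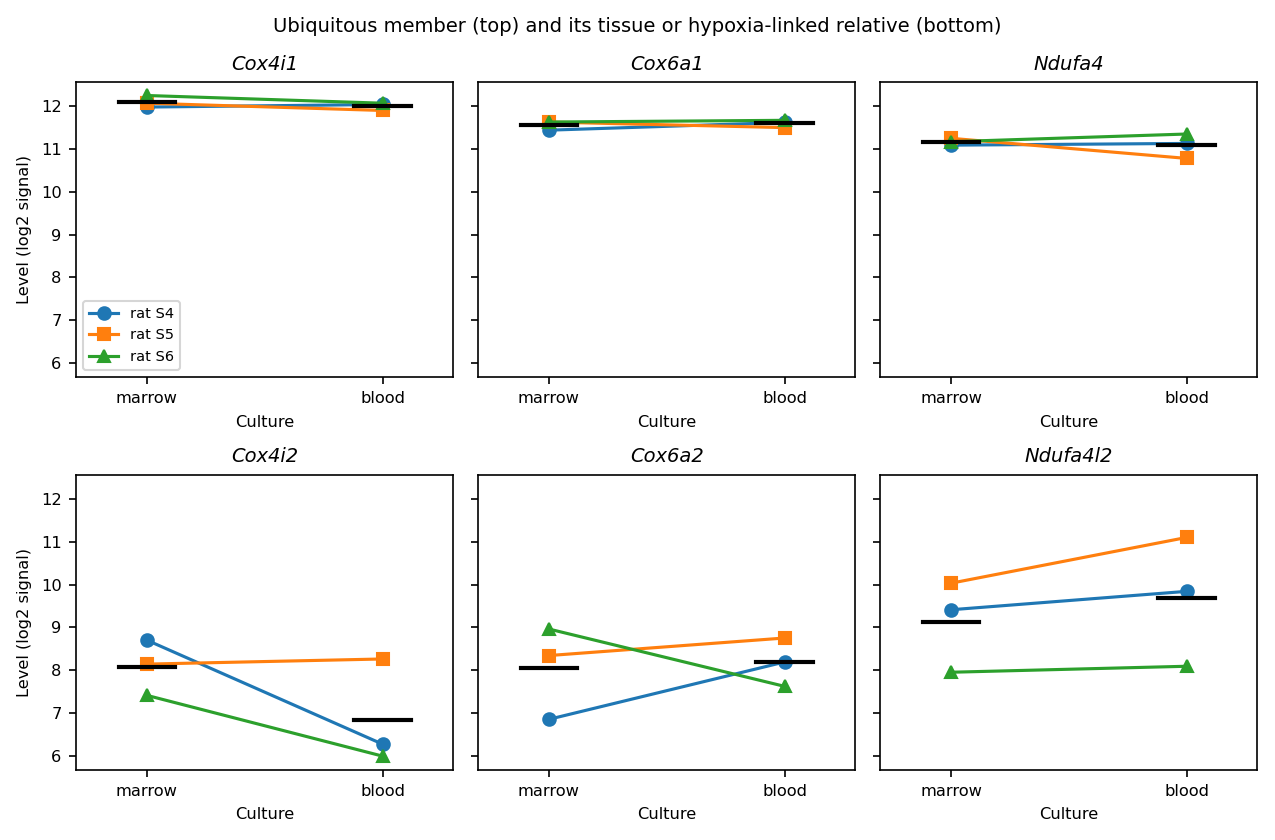
Log2 signal of 3 ubiquitous members (top) and of a tissue isoform or paralog of each (bottom) in marrow and blood cultures, with 1 line per rat and a black bar at the mean of each group. The lines of Cox4i1 and Cox6a1 are nearly flat, while Ndufa4 has a difference of -0.47 in rat S5. Cox4i2 is lower in blood in rats S4 and S6, and Ndufa4l2 is higher in blood in each rat from very different levels. Levels of different probe sets are not comparable.

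Complex V had all 15 of its genes tested, with a median difference of -0.09. Of the 15, 13 were below 0 (86.7%, against 52.5% of all tested genes). Of the 5 subunits of the catalytic head and central stalk, 3 were below 0, and so were all 10 of the peripheral stalk, the c ring and the membrane part. These counts use the brightest kept probe set of each gene. A dimmer one of Atp5me, below the filter, differed by 0.08 ± 0.15. Atp5po, the stalk subunit that holds the head still, was the lowest of the complex. Its marrow levels of 11.00, 11.10 and 11.26 lay above all of its blood levels, 10.90, 10.74 and 10.93. The difference of -0.26 ± 0.12 had a 95% interval of -0.57 to 0.05 and an adjusted p of 0.441. The catalytic head subunit Atp5f1a showed the same order, at 11.31, 11.40 and 11.31 in marrow and 11.27, 11.15 and 11.19 in blood cultures, with a difference of -0.14 ± 0.12. The membrane subunit Atp5mf differed by -0.14 ± 0.14 and Atp5mc3, which encodes the c ring, by -0.13 ± 0.13. Atp5f1e, a small subunit of the central stalk, had the highest difference, 0.13 ± 0.13.

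Unlike the 5 complexes, the assembly factors had a positive median difference, 0.18, with 6 of 7 tested genes above 0. Sdhaf4, which takes part in building complex II, had marrow levels of 7.60, 7.84 and 8.66 and blood levels of 9.09, 8.00 and 8.73. Most of its difference of 0.57 ± 0.30 (95% interval -0.17 to 1.31, adjusted p = 0.491) came from rat S4, and without that rat it was 0.12. Ndufaf3, a complex I assembly factor, lay at 8.01, 8.19 and 8.34 in marrow and at 8.74, 8.34 and 8.64 in blood cultures. It was higher in blood in each rat, with the lowest blood value level with the highest marrow value, and the difference was 0.39 ± 0.15 (95% interval 0.01 to 0.78, adjusted p = 0.343 in limma). Sdhaf2, which helps to attach the flavin to Sdha, differed by 0.20 ± 0.17, and its dimmer probe set below the filter by -0.01 ± 0.20. Ndufaf5 was the only one of the 7 below 0, at -0.12 ± 0.12. The median of the class rests on rat S4, since without it the value was -0.02.

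Related genes made up the remainder, with a median difference of 0.13 over 3 tested genes, 2 of them above 0. Cox7a2l, which links complexes III and IV in supercomplexes, was at 11.61, 11.51 and 11.65 in marrow and 11.74, 11.72 and 11.71 in blood cultures. Its groups did not overlap, and the difference was 0.13 ± 0.12 (adjusted p = 0.74). Atp5if1, the inhibitor that stops ATP synthase from running backwards, differed by -0.06 ± 0.16. In all, the groups did not overlap for 12 of 81 members, or 14.8%, against 18.5% of all probe sets tested. They were lower in blood cultures for Ndufa11, Ndufb4, Ndufb8, Ndufv1, Ndufv3, Uqcrh, Atp5f1a, Atp5mpl, Atp5po and 1 probe set of Sdhd and higher for Cox7a2l and Ndufs4. Ndufb4, Ndufb8, Atp5mpl, Ndufs4 and Atp5if1 are named here after their values were seen. Blood was above marrow in each rat for 8.64% of members and 15.1% of all probe sets, and below it in each rat for 16% and 19.1%.

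Within single rats the members moved together, and not the same way in each rat. Over the 80 genes the median blood minus marrow difference was 0.15 in rat S4, with 66 genes above 0, but -0.17 in rat S5, with 12 above 0, and -0.12 in rat S6, with 18 above 0. All 6110 tested genes leaned the same way but less, with medians of 0.10, -0.09 and -0.04. Their shares above 0 were 62.5%, 34.9% and 41.9%, where the members had 82.5%, 15% and 22.5%. The 1014 tested genes between the members' quartiles of mean signal had 66.4%, 34.4% and 37.6%. The pattern was not particular to the members, since 63 mitochondrial ribosomal protein genes had 81%, 20.6% and 31.7%. Genes of mitochondrial protein import and chaperones shared it less, at 90.9%, 27.3% and 68.2%. Each of the 5 complexes had a positive median in rat S4, from 0.12 to 0.15, and a negative one in rats S5 and S6, from -0.34 in complex II to -0.09 in complex IV. Assembly factors had medians of 0.54, 0.00 and 0.07. These counts describe genes on shared arrays and are no test.

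Within each group the arrays kept a common order over many members. The marrow array of rat S4 was the lowest of the 3 marrow arrays for 66 of 80 member genes, or 82.5%, compared with 40.3% of all tested genes. The marrow array of rat S6 was the highest for 56, or 70%, compared with 49.2%. Among blood arrays, that of rat S5 was the lowest for 63, or 78.8%, compared with 57.7%. For tested genes between the members' quartiles of mean signal these 3 shares were 45.5%, 53.9% and 61.9%.

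**Figure D3:**
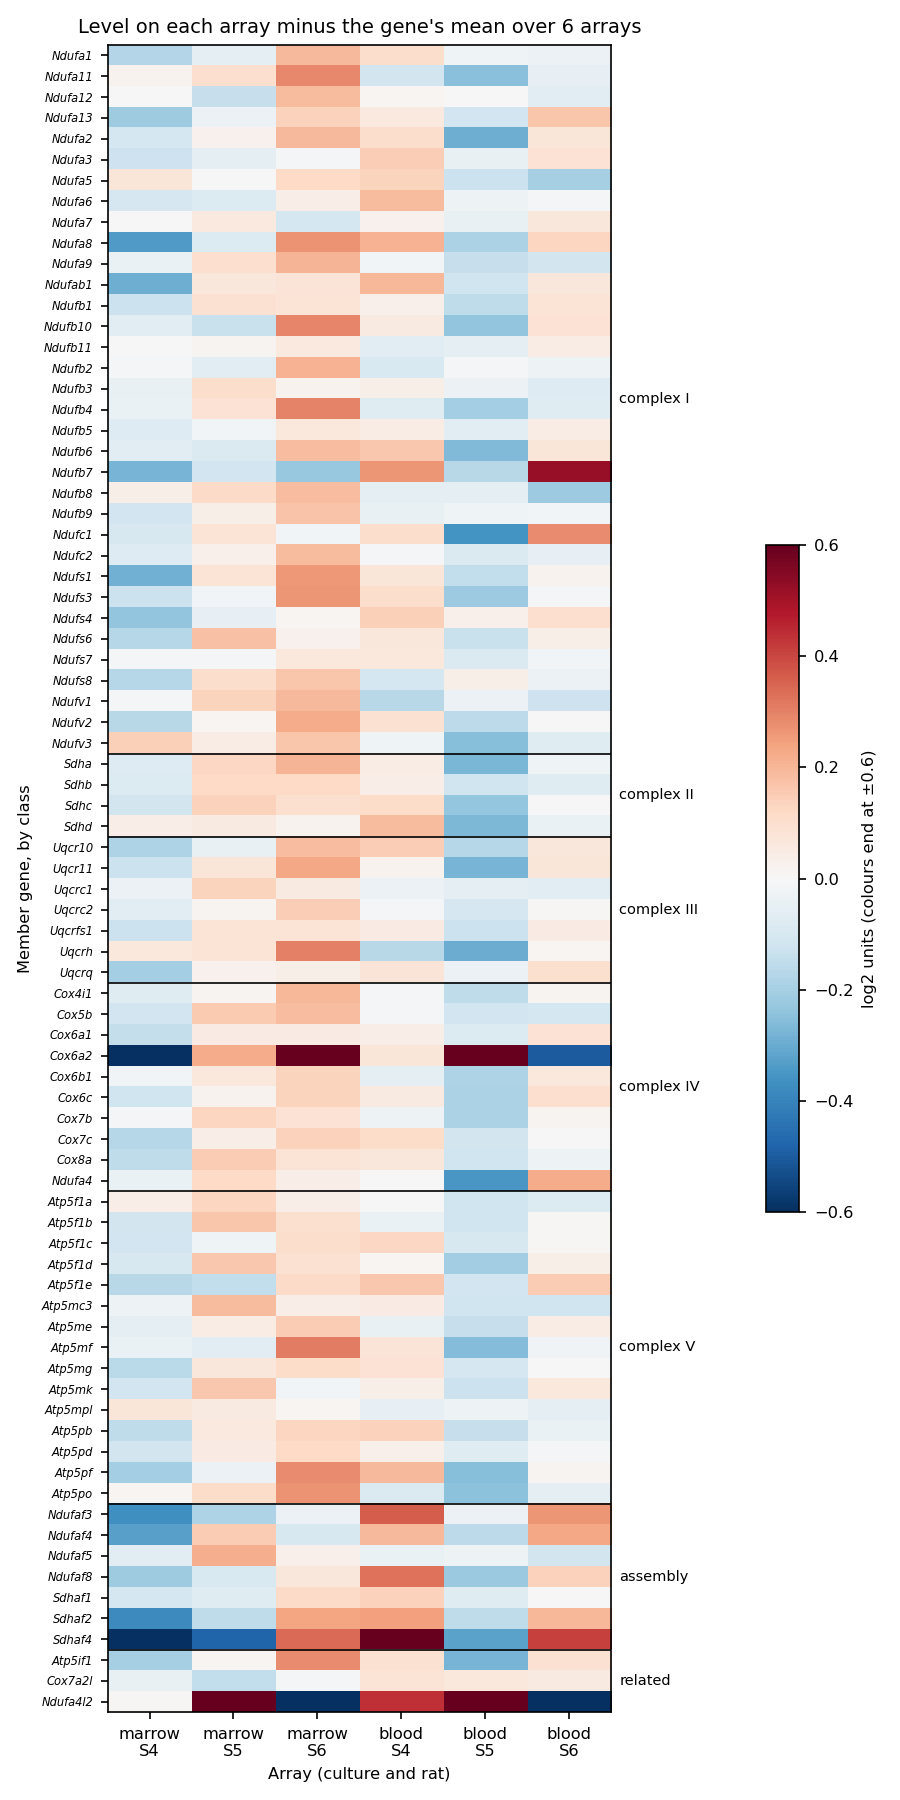
Log2 signal of each tested member gene on each of the 6 arrays (columns), as the difference from the mean of that gene over the 6 arrays, with colours ending at 0.6 log2 units either side of 0 and genes grouped by class (rows). Blue, for lower than the gene's mean, prevails in the columns of the S4 marrow and the S5 blood cultures, and red in that of the S6 marrow culture.

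Array scaling moved these values. The trimmed mean signals of the 6 arrays differed by 10.2%, and when they were made equal the medians of all genes became -0.00, -0.02 and -0.00 in rats S4, S5 and S6. Those of the members then were 0.05, -0.10 and -0.08. After quantile normalization the members had 0.03, -0.10 and -0.06, with medians of -0.02, -0.02 and 0.01 over all genes. The positive value in rat S4 was thus reduced most, and complexes I and II had medians of -0.00 and 0.00 there after quantile normalization. The median of the differences over all 3 rats was -0.04 under both scalings.

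**Figure D4:**
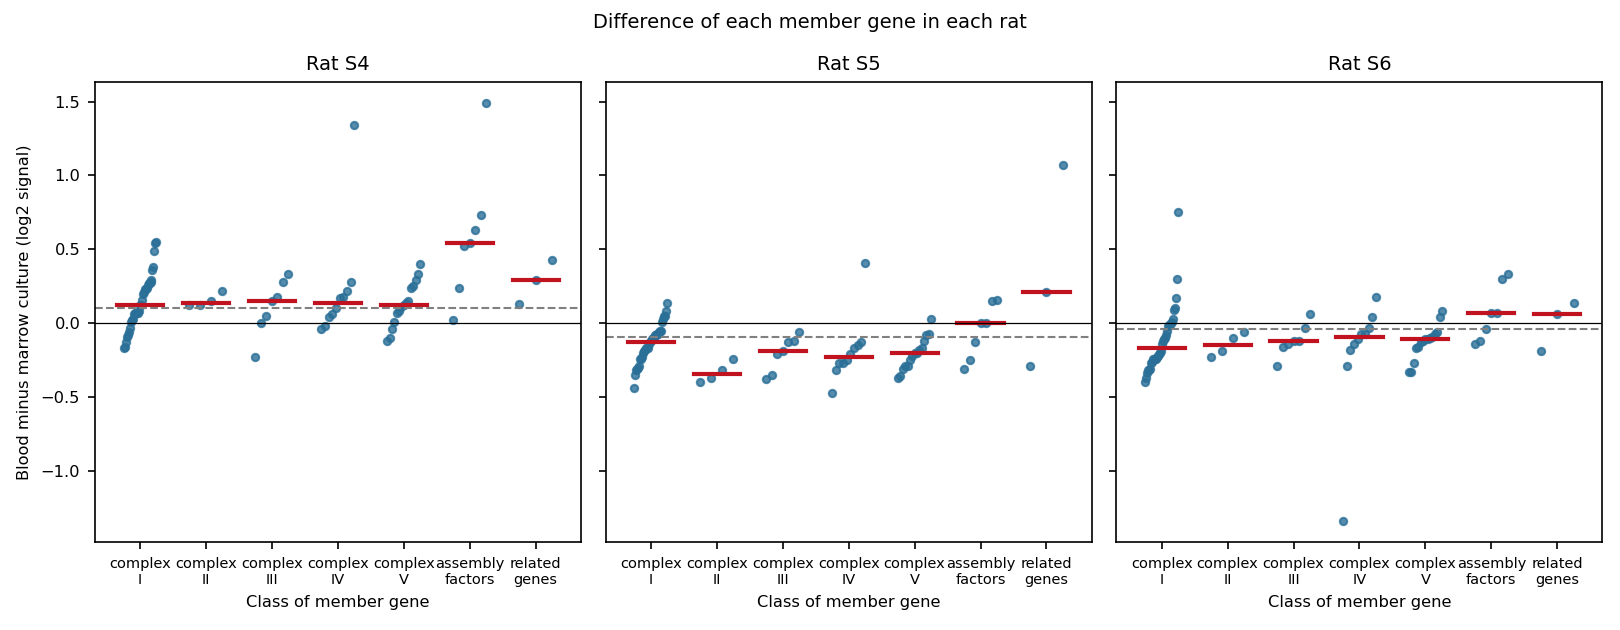
Blood minus marrow difference in log2 units of each tested member gene (points) in rats S4, S5 and S6 (panels), by class, with red bars at the class median and a dashed line at the median of all 6110 tested genes. The bars of complexes I to V lie above 0 in rat S4 and below 0 in rats S5 and S6.

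Leaving out a rat therefore turned the sign of small medians. Without rat S4 the median over member genes was -0.14, without rat S5 it was 0.03, and without rat S6 it was -0.02. Without rat S5 complexes I, IV and V had medians of 0.01, 0.03 and 0.01, and complex III stayed at -0.01. The signs of the complexes are accordingly not settled by 3 animals.

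Arrays of rats S4 and S5 were washed on 1 fluidics station and those of rat S6 on another, per the instrument files. The station with rats S4 and S5 thus held opposite member medians, 0.15 and -0.17, and the other held -0.12. With the station as the block in place of the rat, 0 of 81 members were called. Every blood array was run on an odd-numbered module and scanned just before the marrow array of the same rat, so module and scan order cannot be told apart from the source of the cells.

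Cell type markers gave context for these cultures. All 10 stromal markers passed the filter, and 1 was called, where 2.15% of all probe sets tested were. This was Eng, which encodes endoglin, higher in blood cultures by 1.62 ± 0.23 (adjusted p = 0.038 in limma). Of the 10 markers, 8 had differences above 0, among them Vim (0.01 ± 0.12) and Cd44 (0.01 ± 0.28). The other 2 were below 0, Thy1 at -1.02 ± 0.83 and Pdgfrb at -0.38 ± 0.15. Of 12 macrophage and leukocyte markers 8 also passed the filter, and 0 were called. All 8 had differences above 0, with a median of 0.46. By rat the median difference was 1.37 in rat S4, 0.15 in rat S5 and -0.01 in rat S6. The summed log2 signal of the 12 was 100.62 to 113.25 in marrow and 107.34 to 113.76 in blood cultures, with none at 0. Single levels were uneven. The leukocyte antigen gene Ptprc was below 8.18 on every array, at 6.77 to 7.90, and Csf1r, Itgam and Coro1a also missed the filter. Lyz2, by contrast, lay at 10.71 to 12.51 and Cd68 at 9.64 to 11.11 over both groups. In rat S4 the members and these markers were both higher in blood than in marrow, and the part of such cells in the members' values was not tested. Of 12 cell division markers 3 passed, all with differences below 0 and a median of -0.17. Below the filter, Mki67 (-0.95 ± 0.16) and Top2a (-0.81 ± 0.19) were lower in blood in each rat. The cell division markers with differences above 0 were Mcm5 (0.28 ± 0.18) and Tyms (0.27 ± 0.20). Their part in the members' values was not tested either. Of 4 brown fat markers 0 passed.

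Other genes of mitochondrial energy metabolism were read from 7 lists, and limma called 0 genes in each. Regulators of mitochondrial transcription had 4 of 10 genes on the array tested, with a median of 0.02. Tfam, which packages mitochondrial DNA, differed by -0.13 ± 0.13. Electron carriers and further assembly factors had a median of 0.00 over 24 genes, coenzyme Q synthesis -0.03 over 6, and protein import and chaperones 0.08 over 22. Mitochondrial ribosomal proteins had a median of -0.02 over 63 genes, 34 of them below 0. Of these, Mrps18a had the smallest p, at -0.38 ± 0.12 (adjusted p = 0.253).

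The tricarboxylic acid cycle and pyruvate dehydrogenase had a median of -0.02 over 20 genes. Idh2, the mitochondrial NADP-dependent isocitrate dehydrogenase, had 10.18, 10.30 and 10.02 in marrow and 9.81, 9.67 and 9.72 in blood cultures. All blood values were below all marrow values, by -0.43 ± 0.13 (adjusted p = 0.215). Pdk1, the kinase that shuts pyruvate dehydrogenase and is known to be induced in low oxygen, differed by -0.52 ± 0.21 (adjusted p = 0.362), being lower in blood in rats S4 and S6 and not in rat S5. Cox4i2 was lower in blood in the same rats, while Ndufa4l2 had the opposite sign. These genes were set side by side after their values were seen, and no difference between them was tested.

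Carriers, porins and uncouplers had a median of 0.03 over 11 genes. Ucp2, an uncoupling protein family member found in many cell types, stood apart in size. Marrow cultures of rats S4, S5 and S6 were at 7.68, 8.68 and 8.27, and blood cultures at 10.38, 8.20 and 10.02. Rats S4 and S6 had far higher blood than marrow values and rat S5 did not, and the difference of 1.32 ± 0.58 did not pass the test (adjusted p = 0.4). Without rat S5, the rat with the opposite sign, it was 2.23, with an adjusted p of 0.00447 in limma. That fit had 1 residual degree of freedom and called 406 probe sets, against 175 in the full fit. A rat left out for its own value cannot decide the difference.

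**Figure D5:**
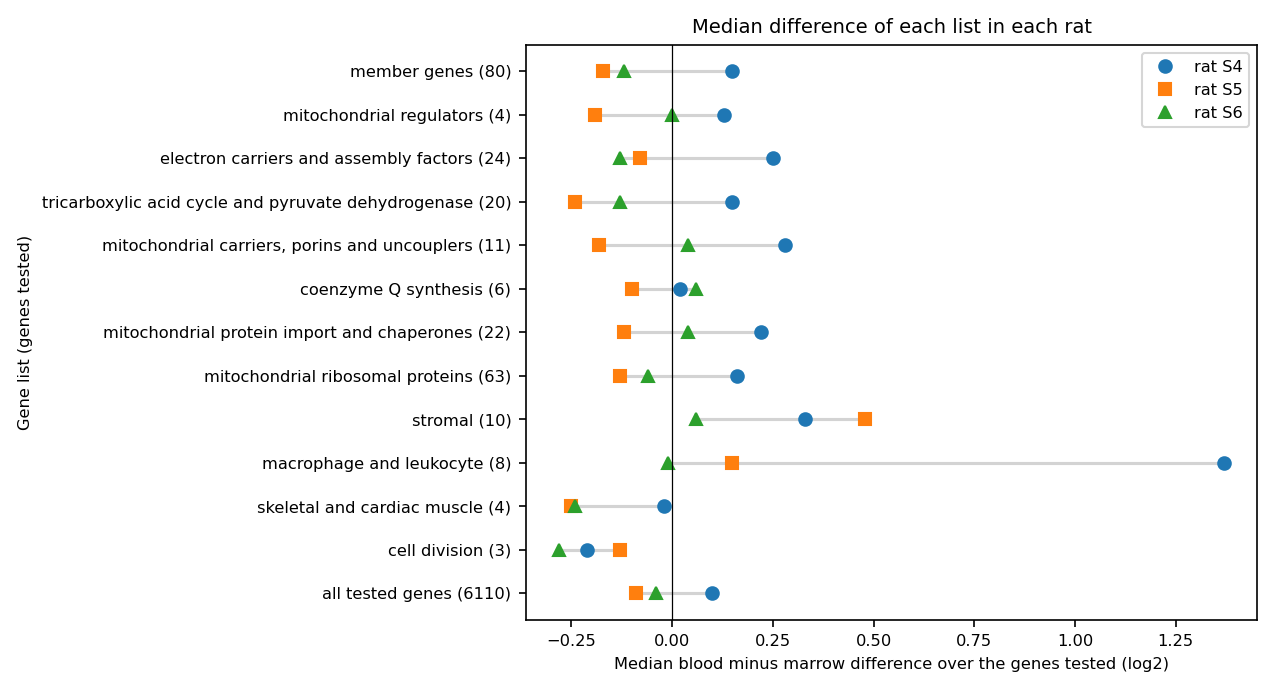
Median blood minus marrow difference in log2 units (x axis) of the member genes, of the lists of related mitochondrial genes, of cell type markers and of all tested genes, with 1 symbol per rat and the number of genes tested in brackets. For the member genes and all 7 mitochondrial lists rat S4 lies above 0 and rat S5 below, and the macrophage and leukocyte list stands out at 1.37 in rat S4.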

How the data were processed

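Per the labels, total RNA of 3 blood and 3 marrow stromal cell cultures was measured on Affymetrix RAE230A arrays (chip type per the file headers). The values the authors deposited were taken as log2 signals, since they run from 0 to 13.31; their base, how probes were summarised and how arrays were normalized are not given in the sources used, and GCOS is the 1 tool named in the submitters' processing notes. Differences in log2 units depend on that base, and p-values do not. Of 95538 cells 86 were empty, none of them in a member.

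Values were used as deposited, with no pseudocount. After removal of 57 control probe sets and the filter on signal, 8135 probe sets were fitted with limma 3.58.1 in R 4.3.3 (lmFit, eBayes, two-sided; rat as a fixed term; Benjamini-Hochberg adjustment, threshold 0.05), a fit that was also tested on simulated data. Array medians were 8.12 to 8.22, and the number of arrays limits the precision. The pairing comes from the series' design text; departures from the group mean correlated between the arrays of 1 rat at -0.29 (S4), 0.30 (S5) and 0.33 (S6), and between different rats at -0.47 to 0.42. The brightest kept probe set stood for a gene. Intervals are 95% intervals of the fit, errors are SE, and medians over members are descriptions with no test.

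The members and lists were chosen with earlier results of these data known. Named members were, in each complex and in the assembly factors, up to 4 genes with the smallest p and those with the largest differences. All tissue isoforms and all Sdh subunits were named too, and in each list genes of smallest p. Atp5me and Ndufaf4 are named for the NRF1 letters in their windows. Rule-based matching left out 7 probe sets with several symbols, for Atp5mc1, Atp5mc2, Cox7a2, Cox5a, Ndufa10, Ndufs5 and Uqcrb. All 94 members matched RefSeq by gene identifier. Near-identical pseudogene copies of respiratory genes may share probes. Alternatives were another scaling, other filters, other blocks, a variance trend and leaving out each rat. Python 3.11.15, pandas 2.3.3 and matplotlib 3.10.9 made tables and figures.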

Additional observations from a re-analysis of the deposited data

How the results depend on the processing

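Under every one of the 11 alternatives to the fit described, 0 member probe sets were called. The 31 tested members named by p, size of difference, isoform or Sdh subunit gave 306 alternative values, with 0 past the threshold. The smallest adjusted p of these members was 0.124 in limma. Their sign changed 9 times, each time when 1 rat was left out. Counts over all probe sets moved more: 175 calls became 82 with no filter, 104 with trimmed mean scaling and 107 with quantile normalization, and lay between 0 and 406 when 1 rat was left out (0 without rat S4, 406 without rat S5, 44 without rat S6), with 1 residual degree of freedom. The cause was not tested. Without the replicate block 130 probe sets were called, with the rat as a random effect 131, and with the fluidics station as the block 127; neither choice of block or pairing changed a call of a member. The count of called carriers, porins and uncouplers, 0 in the full fit, was 1 (Ucp2) without rat S5 and 0 without either other rat. The medians of the members and complexes moved by less than the SD of the 3 rat medians in all alternatives, though several changed sign without 1 rat. Leaving out 1 of 3 rats can hardly move a median by more than that SD. A change of block leaves the differences as they are, so this bound is no sign of stability. With 3 rats the unadjusted 95% interval of a member reached a median of 0.33 log2 units to either side of its estimate, which is not the limit of the adjusted test: differences up to 0.57 were not called.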
